A study of Apostichopus japonicus with 9 samples.

Results

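Matrix metalloproteinases (MMPs) are zinc-dependent proteases that are made as inactive proenzymes and cut collagens, gelatin and other proteins of the extracellular matrix. Some are secreted and others sit in the cell membrane, and tissue inhibitors of metalloproteinases (TIMPs) bind to their active site and block them. The body wall of *A. japonicus* (AJBW) is mostly a collagen-rich connective tissue, of the kind that in sea cucumbers can stiffen or soften, and gelatin-cutting metalloproteinases are known from it.

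The 8 genes described here are a fixed list of gene IDs, out of 53665 genes in all, and each is named by the description that the gene table gives it. The inhibitor was identified through the study's own gene table. The list does not hold every such gene, since 13 others have an MMP description and 7 others a TIMP description. They are 7 metalloproteinases and 1 inhibitor. Those described as 72 kDa type IV collagenase, the gelatinase also known as MMP-2, were MSTRG.29492, MSTRG.34270 and MSTRG.46832. Those described as MMP-16, a membrane-anchored enzyme that in mammals can activate the MMP-2 proenzyme, were MSTRG.5484, MSTRG.45005 and MSTRG.25325. MSTRG.9641 joins 2 predicted genes, of which 1 is described as interstitial collagenase, an enzyme that cuts fibrillar collagen, and the other as MMP-14-like, a membrane-anchored collagenase. MSTRG.23074 is described as metalloproteinase inhibitor 1, that is, a TIMP. None of the 8 carried a GO term or a KEGG pathway in the table. Names rest on the predicted protein's description, so genes of 1 name are separate gene models and not replicates of each other. How reads that match several genes were shared among them is not given in the sources used here, so the split of reads among genes of the same name is uncertain.

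RNA was sequenced from 3 libraries of fresh AJBW frozen with no incubation (CON), 3 of AJBW held for 1 h (T_1h) and 3 held for 3 h (T_3h) at 37 °C. All came from animals with a body weight of 150 ± 20 g whose viscera and heads had been removed, and the incubated pieces lay on plates with 3 pieces each, so they were cut tissue and not living animals. The comparisons address which endogenous proteases change at the mRNA level while the tissue is held at the tenderizing temperature. Levels are FPKM, fragments per kilobase of transcript relative to all mapped reads, which are per length and can be compared between genes, and the read depth behind each value is unknown.

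The 9 libraries differed in breadth. Summed FPKM lay between 336123 and 388082, and 12877 genes (T_3h_2) to 24915 genes (CON_3) had an FPKM of at least 1. T_1h_1 stands apart from the other libraries in the study's own check and was left out of the fit, so T_1h has 2 libraries in every test and 3 in every listed value. Connective tissue genes (collagens, fibrillins, tenascins) summed to 13887 to 24860 FPKM in CON, 15770 to 25989 in T_1h and 15582 to 34125 in T_3h. Summed FPKM of gut genes was 26.4 to 43.6 in CON, 28.8 to 41.6 in T_1h and 29.8 to 35.9 in T_3h, and no gene of these marker lists was at 0 in all 9 libraries.

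A gene was called where limma gave an unadjusted p of at most 0.05 and the log2 fold change was 1 or more in size. A call that was lost missed at least 1 of these thresholds. All fold changes are on the log2(FPKM + 1) scale, which understates the change of low genes. In T_1h vs. CON, 2 of the 8 genes were called higher and 1 lower, where 0.398% of the 50973 genes tested were called higher and 0.473% lower (0.871% in either direction). In T_3h vs. CON, 2 were called higher and 3 lower, where 0.473% of all genes were called higher and 3.67% lower (4.14% in either direction). The study had already reported a type IV collagenase and an MMP-16 precursor gene as upregulated at both times in these data. The 8 genes were chosen with such results known, so their shares beside those of all genes, here and below, are no test. All 8 genes averaged 1 FPKM or more over the 9 libraries, as did 20319 of those tested. With a mean FPKM of 1 as the filter, 356 genes were called at 1 h and 1995 at 3 h against CON (3 and 4 of the 8). The shares over all genes therefore understate how often genes at such levels were called. None of the 8 was called in T_3h vs. T_1h by limma or by the Ballgown-type test, and 0 had an unadjusted limma p under 0.05, where 0.0824% of all genes were called higher and 0.645% lower (0.728% in either direction). In this fit no gene of the whole table reached a Benjamini-Hochberg adjusted limma p under 0.05 in any of the 3 comparisons. An unadjusted p under 0.05 was reached by 896 genes in T_1h vs. CON, by 3157 in T_3h vs. CON and by 786 in T_3h vs. T_1h, and the Ballgown-type test, an unmoderated alternative, also left no gene under an adjusted p of 0.05. With the replicate number as a block, which pairs same-numbered libraries, 791 and 3173 genes were called at 1 h and 3 h against CON, compared with 444 and 2111 without it, and the calls of the 8 genes against CON stayed as they were. With the block, 1 gene had an adjusted limma p under 0.05 in T_3h vs. T_1h, and with the block on all 9 libraries 5 genes had one in T_3h vs. CON. A pseudocount of 0.1 gave 1 such gene at 1 h against CON and 1 in T_3h vs. T_1h. None of these was among the 8. Over the 8 genes the median log2 fold change was 0.17 at 1 h and −0.12 at 3 h against CON, beside −0.06 and −0.17 over all genes, and the value at 3 h turned to 0.17 with median-ratio scaling. Both comparisons share their CON libraries.

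**Figure D1:**
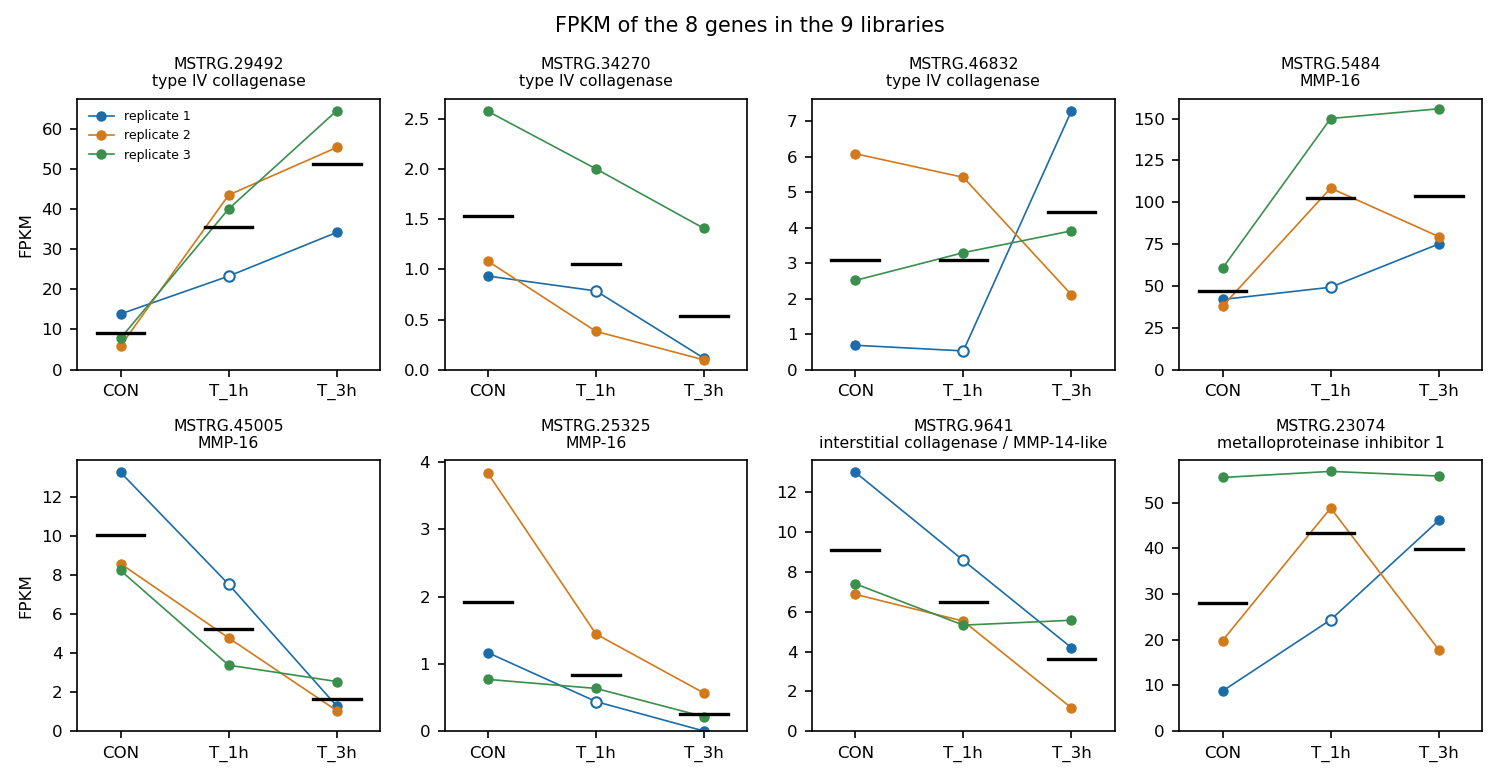
FPKM (y axis, a scale of its own in each panel) of the 8 genes in CON, T_1h and T_3h (x axis). Points are libraries, lines join libraries of the same replicate number, the open point is T_1h_1, which the fit leaves out, and black bars are means of 3 libraries. MSTRG.29492 lay at 34.2 to 64.5 FPKM in T_3h, above the 5.86 to 13.8 FPKM of CON, while MSTRG.45005 lay at 1.05 to 2.54 FPKM in T_3h, below the 8.23 to 13.3 FPKM of CON.

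The type IV collagenase MSTRG.29492 was upregulated at both times, with the largest fold change of the 8 genes against CON at 1 h and at 3 h. It had 13.8, 5.86 and 7.79 FPKM in CON, 23.3, 43.5 and 40.0 FPKM in T_1h, and 34.2, 55.3 and 64.5 FPKM in T_3h. Every heated library was above every CON library, and the lowest of the heated ones was T_1h_1. The group means were 9.16 ± 4.17 FPKM in CON, 35.6 ± 10.8 FPKM in T_1h and 51.3 ± 15.6 FPKM in T_3h (SD, n = 3 each). Against CON, the log2 fold change was 2.15 (SE 0.47, limma adjusted p = 1) at T_1h, a 4.43-fold difference on the FPKM + 1 scale. In T_3h vs. CON it was 2.39 (SE 0.42, limma adjusted p = 0.626), or 5.25-fold. The levels of T_3h and T_1h overlapped, and their log2 difference of 0.25 (SE 0.47) was not called. With T_1h_1 put back it was 0.52, and within same-numbered libraries T_3h was the higher in 3 of 3 pairs, by 0.54, 0.34 and 0.68 on the log2 scale.

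Both calls of MSTRG.29492 held in every alternative fit and with any of the 8 fitted libraries left out. With a library left out, its log2 fold change was 1.90 to 2.46 for T_1h and 2.15 to 2.71 for T_3h. Within libraries of the same number, T_3h exceeded CON in 3 of 3 pairs, by 1.24, 3.04 and 2.90 on the log2 scale for numbers 1, 2 and 3. Number 1 showed the smallest difference, with CON_1 at the highest CON level and T_3h_1 at the lowest T_3h level. By rank among the genes above 0 in a library, MSTRG.29492 stood at percentiles 98.2 to 98.9 in T_3h and 86.0 to 94.8 in CON.

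The other 2 type IV collagenase genes were not called in any of the 3 comparisons. MSTRG.34270 was expressed at a low level, with a mean of 1.04 FPKM over the 9 libraries. MSTRG.46832 averaged 3.53 FPKM and stood at percentiles 36.5 to 91.8 among the genes above 0 in a library. MSTRG.34270 had 0.934, 1.08 and 2.58 FPKM in CON, 0.786, 0.382 and 2.01 FPKM in T_1h, and 0.113, 0.0962 and 1.41 FPKM in T_3h. Its level was lower in T_3h than in CON within all 3 same-numbered pairs, but T_3h_3 was above CON_1 and CON_2, so the groups overlapped. The log2 fold change of T_3h vs. CON was −0.77 (SE 0.51). MSTRG.46832 had 0.684, 6.08 and 2.51 FPKM in CON, 0.526, 5.41 and 3.29 FPKM in T_1h, and 7.29, 2.11 and 3.91 FPKM in T_3h. Its spread within each group was as wide as any difference between groups, and the log2 fold change of T_3h vs. CON was 0.53 (SE 0.60).

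MSTRG.5484, described as MMP-16 precursor, had the highest level of the 8 genes in each of the 9 libraries and was called higher at both times. It had 41.9, 37.9 and 60.6 FPKM in CON, 49.2, 108 and 150 FPKM in T_1h, and 75.1, 79.5 and 156 FPKM in T_3h. All T_3h libraries lay above all CON libraries, whereas T_1h_1 lay inside the CON range. The log2 fold change was 1.46 (SE 0.45, limma adjusted p = 1) in T_1h vs. CON, or 2.75-fold, and 1.07 (SE 0.41, limma adjusted p = 0.777) in T_3h vs. CON, or 2.11-fold. T_3h and T_1h overlapped, with a log2 difference of −0.38 (SE 0.45).

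The calls of MSTRG.5484 depended on single libraries. With T_1h_1 put back, they were missed at T_1h (log2 fold change 1.00, SE 0.48) and at T_3h (1.07), and with the replicate number as a block in that fit both were called. The T_1h call was lost without T_1h_3 (1.22). The T_3h call was lost without CON_1 (1.01), CON_2 (0.94) or T_3h_3 (0.74). Within same-numbered libraries MSTRG.5484 was higher in 3 of 3 pairs at both times, by 0.23, 1.49 and 1.29 at 1 h and by 0.83, 1.05 and 1.35 at 3 h on the log2 scale, so number 1 at T_1h was the one pair with a small difference.

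MSTRG.45005, also described as MMP-16 precursor, moved the other way, and its fall in T_3h vs. CON was the largest among the 8 genes. It had 13.3, 8.58 and 8.23 FPKM in CON, 7.52, 4.77 and 3.38 FPKM in T_1h, and 1.28, 1.05 and 2.54 FPKM in T_3h. The 3 groups did not overlap, with every T_1h library below CON and every T_3h library below T_1h. The means were 10.0 ± 2.81 FPKM in CON, 5.22 ± 2.11 FPKM in T_1h and 1.62 ± 0.802 FPKM in T_3h (SD, n = 3 each). In T_3h vs. CON the log2 fold change was −2.08 (SE 0.39, limma adjusted p = 0.626), 4.24-fold lower in T_3h, and this call held in every alternative fit and with any library left out.

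At T_1h the fall of MSTRG.45005 against CON was smaller and less certain, with a log2 fold change of −1.10 (SE 0.43, limma adjusted p = 1). This call was lost with all 9 libraries (−0.85), with median-ratio scaling (−0.93), with a pseudocount of 0.1 (−1.26) and without any 1 of CON_1, CON_2, T_1h_2, T_1h_3 and T_3h_1, with log2 fold changes of −1.30 to −0.90 over the 8 libraries left out. T_3h vs. T_1h gave −0.98 (SE 0.43), just short of both thresholds. With the replicate number as a block, T_3h vs. T_1h was called (−1.04), and it was also called with all 9 libraries (−1.23) and without T_3h_3 (−1.22).

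The third MMP-16 gene, MSTRG.25325, was expressed at a low level and was called lower in T_3h vs. CON. It had 1.17, 3.83 and 0.768 FPKM in CON, 0.438, 1.44 and 0.634 FPKM in T_1h, and 0.213 and 0.564 FPKM in T_3h_3 and T_3h_2, and it was listed at 0 in T_3h_1. All T_3h values were below all CON values, and CON_2 was the one library above 2 FPKM. The log2 fold change of T_3h vs. CON was −1.10 (SE 0.48, limma adjusted p = 0.806), at the edge of both thresholds. The call was kept with 1 of the 8 libraries left out (CON_3: −1.39) and lost with each of the other 7, at log2 fold changes of −1.26 to −0.66, with −0.66 without CON_2. It was also lost with a filter at a mean FPKM of 1 and with the Ballgown-type test (−1.20). T_1h vs. CON was −0.40 (SE 0.53), with overlapping groups.

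MSTRG.9641, the interstitial collagenase or MMP-14-like gene, was called lower in T_3h vs. CON. It had 13, 6.88 and 7.41 FPKM in CON, 8.59, 5.53 and 5.33 FPKM in T_1h, and 4.20, 1.16 and 5.57 FPKM in T_3h. All T_3h libraries were below all CON libraries, and T_3h_2, the library with the fewest genes of at least 1 FPKM, was the lowest. The log2 fold change of T_3h vs. CON was −1.22 (SE 0.49, limma adjusted p = 0.798). The call was kept without T_3h_1 (−1.37) and without T_3h_3 (−1.54), and lost without each of the other 6 libraries, with −1.37 without CON_2, −1.32 without CON_3, −1.22 without T_1h_2 or T_1h_3, −0.96 without CON_1 and −0.74 without T_3h_2. The Ballgown-type test did not call it either (−0.96). T_1h vs. CON was −0.60 (SE 0.55), with overlapping groups.

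Counting all 9 libraries, 5 of the 8 genes did not overlap between T_3h and CON, 2 higher and 3 lower, where 10.6% of 51453 genes did not overlap (1.66% higher and 8.92% lower). Between T_1h and CON, MSTRG.29492 (higher) and MSTRG.45005 (lower) did not overlap, where 4.96% of those genes did not (1.48% higher and 3.47% lower). Between T_3h and T_1h, only MSTRG.45005 of the 8 did not overlap, where 5.09% did not (0.657% higher and 4.44% lower). For a single gene, the smallest two-sided p of an exact permutation test is 0.1 with 3 libraries against 3 and 0.2 with 2 against 3, so the calls rest on limma's model.

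**Figure D2:**
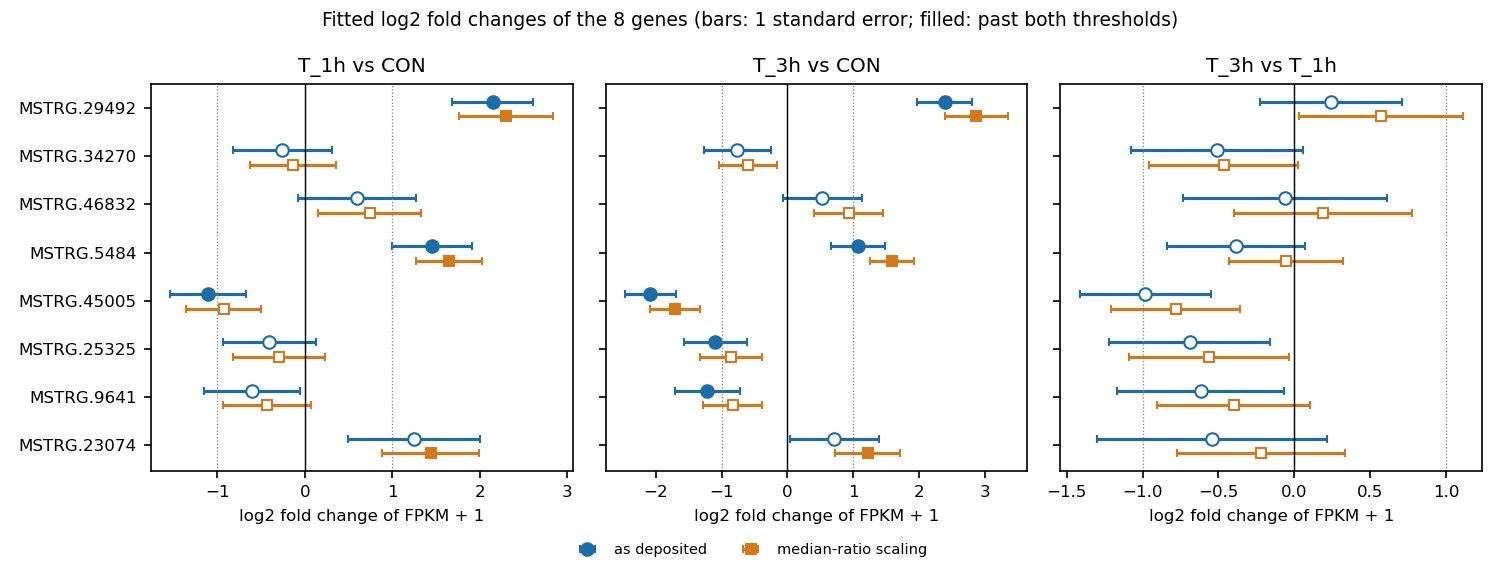
Fitted log2 fold changes of FPKM + 1 (x axis) of the 8 genes (y axis) in the 3 comparisons (1 panel each), with values as deposited (circles) and after median-ratio scaling (squares). Bars are 1 SE, filled symbols passed both thresholds and dotted lines mark a log2 fold change of 1 in either direction. MSTRG.29492 and MSTRG.5484 were past both thresholds above CON under both scalings, and MSTRG.45005 was past them below CON at T_3h under both.

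The scaling of the libraries changed some of these calls. With values as deposited, the median log2 fold change of all genes tested was −0.06 at 1 h and −0.17 at 3 h against CON, and −0.39 in T_3h vs. CON over the 20319 genes averaging 1 FPKM or more. Median-ratio scaling, which equalizes the typical gene across libraries, brought these medians to −0.00, −0.02 and −0.07. Under it MSTRG.29492 gave 2.30 and 2.87 and MSTRG.5484 gave 1.65 and 1.59 at 1 h and 3 h against CON, and all of these were called. At 1 h MSTRG.45005 was not, and the background was 0.585% higher and 0.218% lower (0.802% in either direction). The falls in T_3h vs. CON became −1.71 for MSTRG.45005, which was still called, −0.86 for MSTRG.25325 and −0.83 for MSTRG.9641, which were not. Of all genes, 2.81% were called under this scaling in T_3h vs. CON, 1.12% higher and 1.68% lower, so the split between higher and lower calls moved towards higher ones.

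The inhibitor MSTRG.23074, whose product would bind to active MMPs, varied more between libraries of a group than between groups. It had 8.77, 19.8 and 55.5 FPKM in CON, 24.4, 48.8 and 56.9 FPKM in T_1h, and 46.1, 17.8 and 55.8 FPKM in T_3h. The 3 libraries of number 3 were nearly level at 55.5 to 56.9 FPKM, number 1 was higher in T_3h than in CON, and number 2 was highest in T_1h. The log2 fold change was 1.25 (SE 0.76) at 1 h and 0.71 (SE 0.68) at 3 h against CON, and neither was called. With median-ratio scaling both were called, at 1.44 and 1.22, and the Ballgown-type test called both as well (1.84 and 1.87). The T_1h comparison was also called without CON_3 (1.91).

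Summed over the 7 metalloproteinases, FPKM was 84.8, 70.2 and 89.9 in CON, 90.3, 169 and 205 in T_1h, and 122, 140 and 234 in T_3h. All T_3h sums were above all CON sums, and T_1h_1 lay just above CON_3. MSTRG.29492 made up 8.34 to 16.3% of the sum in CON, 19.5 to 25.8% in T_1h and 27.6 to 39.6% in T_3h, and these ranges did not overlap. MSTRG.5484 held 49.4 to 67.4%, 54.5 to 73.3% and 56.9 to 66.6% in CON, T_1h and T_3h, with ranges that overlapped. The other 5 genes together held 23.9 to 37.7% in CON, 7.15 to 19.8% in T_1h and 3.56 to 10.5% in T_3h. The sum of the 7 leaves out the 13 other genes with an MMP description. Those 13 went the other way, with summed FPKM of 40.8 to 69.4 in T_3h and 85.4 to 168 in CON.

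The ratio of MSTRG.29492 to MSTRG.5484 was 0.128 to 0.330 in CON, 0.267 to 0.473 in T_1h and 0.414 to 0.696 in T_3h. It was higher in every T_3h library than in every CON library, and since it is taken within a library it does not depend on the scaling. The FPKM of the inhibitor MSTRG.23074 per summed FPKM of the 7 metalloproteinases was 0.103, 0.282 and 0.618 in CON, 0.270, 0.288 and 0.278 in T_1h, and 0.378, 0.127 and 0.239 in T_3h. The T_3h and T_1h values both lay within the range of CON. This ratio covers only part of both families. It leaves out the 13 other genes with an MMP description and the 7 others described as TIMPs. The summed FPKM of those 7 was above that of MSTRG.23074 in each of the 9 libraries. These sums and ratios are descriptions and carry no test.

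**Figure D3:**
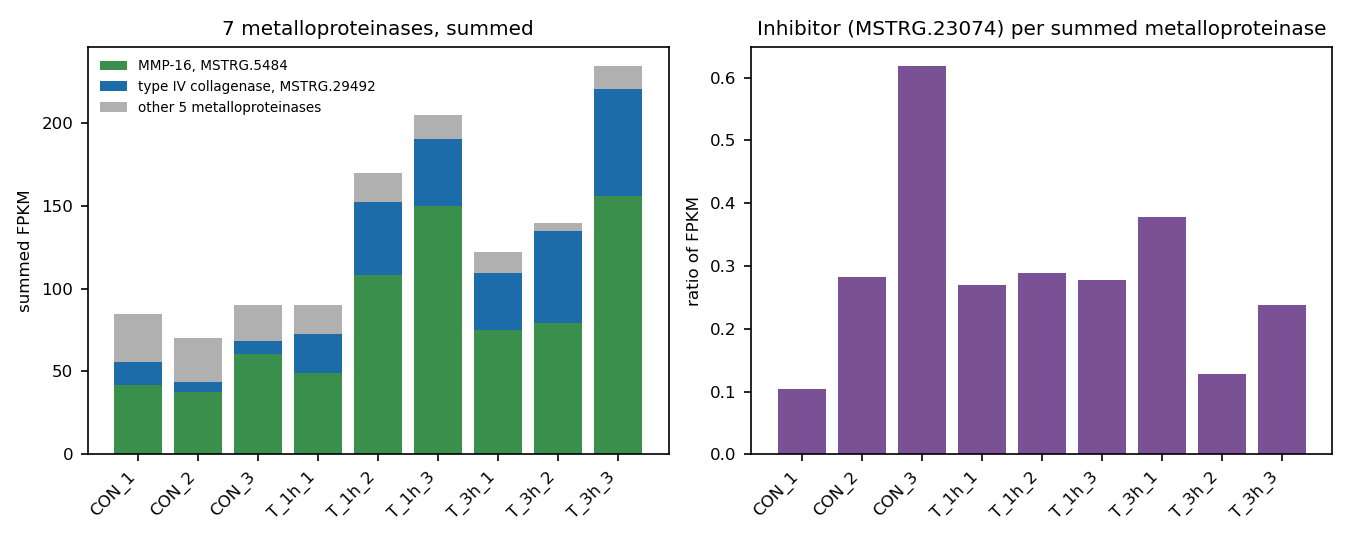
Left, FPKM summed over the 7 metalloproteinases (y axis) in each of the 9 libraries (x axis), stacked as MSTRG.5484 (green), MSTRG.29492 (blue) and the other 5 (grey). Right, FPKM of the inhibitor MSTRG.23074 divided by that sum. Left out of both panels are 13 other genes with an MMP description and 7 others with a TIMP description. The sum was 122 to 234 FPKM in T_3h, above the 70.2 to 89.9 FPKM of CON, while the ratio was 0.127 to 0.378 in T_3h, inside the 0.103 to 0.618 of CON.

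In bulk RNA, fewer cells of a type and less RNA per cell cannot be told apart. Summed FPKM of 102 neuronal genes moved with the falls of MSTRG.45005, MSTRG.25325 and MSTRG.9641, at 709 to 1165 in CON, 376 to 612 in T_1h and 171 to 445 in T_3h, and 1 of the 93 tested was called higher and 9 lower in T_3h vs. CON, where 3.67% of all genes were called lower. With median-ratio scaling 5 were called lower, where 1.68% of all genes were. Summed FPKM of 39 coelomocyte and immune genes was 302 to 611 in CON, 408 to 894 in T_1h and 516 to 816 in T_3h, with 2 called higher and 2 lower of 35 tested in T_3h vs. CON. Gonad genes summed to 121 to 231 FPKM in CON, 116 to 122 in T_1h and 27.1 to 131 in T_3h, and muscle genes to 209 to 306, 189 to 316 and 207 to 273 in the same order. The part of these cell types in the results for the 8 genes was not tested.

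Across the 9 libraries, MSTRG.29492 and MSTRG.5484 varied together (Pearson r of log2(FPKM + 1) 0.802), as did MSTRG.45005 and MSTRG.9641 (0.875). MSTRG.29492 and MSTRG.45005 ran opposite to each other (−0.765). These are descriptions over 9 libraries that share the 3 conditions and their own breadth. The genes most like MSTRG.29492 among 5466 described genes were MSTRG.21696, a hemicentin-1-like matrix protein (0.946), MSTRG.38727, an alpha-1 collagen (0.931), and MSTRG.39445, described only as predicted protein (0.930). For MSTRG.5484 they were MSTRG.13902, complement component C3 (0.979), MSTRG.5215, an axonemal dynein light chain (0.954), and MSTRG.21199, arginine kinase (0.929). For MSTRG.23074 they were MSTRG.27555, a U2 small nuclear ribonucleoprotein A'-like gene (0.944), MSTRG.16071, a receptor-type tyrosine phosphatase (0.939), and MSTRG.25545, an N-alpha-acetyltransferase (0.928).

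Of 13 other genes of the table with an MMP description 12 were tested. In the main limma fit (8 libraries, values as deposited, no block) none was called against CON at either time. None had a p under 0.05 before adjustment in that fit. The Ballgown-type test called 1 lower at 1 h and none at 3 h, and median-ratio scaling gave 1 higher at 3 h. Their median log2 fold change was 0.01 at 1 h and −0.00 at 3 h against CON, beside −0.06 and −0.17 over all genes. Of the 13, 5 averaged 1 FPKM or more, and genes far below that can hardly move on this scale, which holds the median near 0. Against CON, the log2 fold changes of those 5 were −1.75 to 0.52 at 1 h. At 3 h they were 0.63 (MSTRG.29486), −0.86 (MSTRG.29834), −1.87 (MSTRG.34266), −1.12 (MSTRG.38359) and −0.43 (MSTRG.5685). Summed over the 13, FPKM was 40.8 to 69.4 in T_3h, below the 85.4 to 168 of CON, while T_1h was at 83.9 to 118. MSTRG.38359, described as MMP-14 and singled out after its values were seen, was called lower in T_3h vs. CON with the replicate block on 8 or 9 libraries and without CON_1 (−1.78), at a log2 fold change of −1.12 with and without the block. It was also called lower in T_3h vs. T_1h (−1.63, SE 0.68), a call that was lost with all 9 libraries (−0.89), with median-ratio scaling (−1.33), with the Ballgown-type test (−1.47) and without T_1h_2, T_1h_3, T_3h_1 or T_3h_2.

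**Figure D4:**
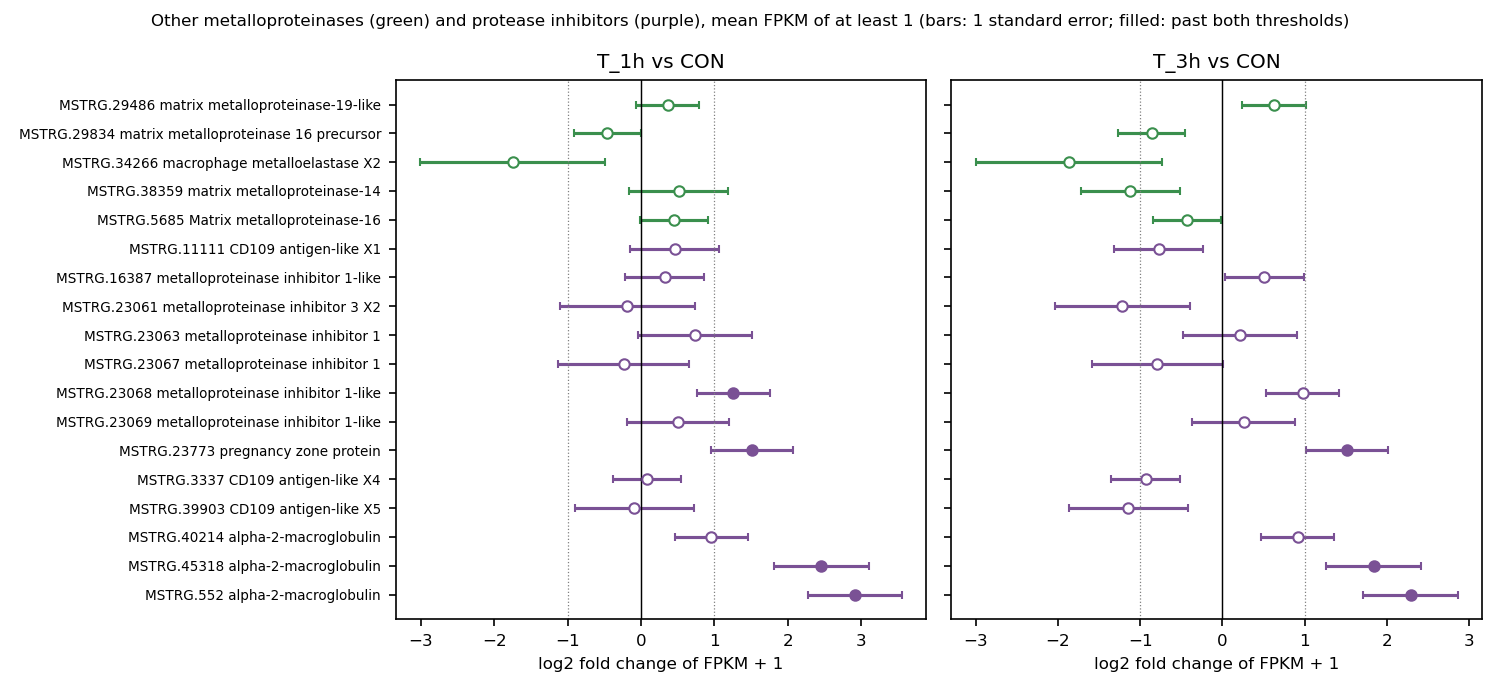
Log2 fold changes of FPKM + 1 (x axis) at 1 h (left) and 3 h (right) against CON for the other metalloproteinases (green) and protease inhibitors (purple) that averaged 1 FPKM or more over the 9 libraries (y axis). Bars are 1 SE and filled symbols passed both thresholds. The filled symbols are inhibitors, with MSTRG.552 at 2.92 at 1 h and 2.29 at 3 h.

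Of 7 other genes described as TIMPs, 1 was called higher by limma at 1 h against CON, and at 3 h none was called or had an unadjusted p under 0.05, with median log2 fold changes of 0.33 at 1 h and 0.21 at 3 h. The Ballgown-type test called none of the 7 at either time. The called one was MSTRG.23068, described as metalloproteinase inhibitor 1-like and named after its values were seen, with 20.3 to 47.2 FPKM in T_1h and 9.69 to 19.5 FPKM in CON (log2 fold change 1.26, SE 0.50). In T_3h it had 20.5 to 28.9 FPKM, above all CON libraries, at a log2 fold change of 0.97 that was called with median-ratio scaling (1.47). The T_1h call was lost without CON_1, CON_3 or T_1h_2. Summed FPKM of the 7 genes was 75.1, 187 and 210 in CON, 127, 310 and 157 in T_1h, and 194, 174 and 159 in T_3h, and T_3h lay inside the range of CON.

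The 21 other metalloproteinase and broad protease inhibitors comprise these TIMPs, genes described as reversion-inducing cysteine-rich protein with Kazal motifs, and the alpha-2-macroglobulin family, which holds broad inhibitors that trap proteases of several classes including MMPs. Of the 21, 5 were called higher at 1 h and 3 at 3 h against CON, where 0.398% and 0.473% of all genes were, and none was called lower, with median log2 fold changes of 0.37 and 0.21. The Ballgown-type test called 3 and 2 higher, and median-ratio scaling 6 and 5. All those called at 1 h but MSTRG.23068, and all 3 at 3 h, were described as alpha-2-macroglobulin or pregnancy zone protein. The CD109-like genes of the family were not called, and of these MSTRG.3337, MSTRG.39903 and MSTRG.11111, named after their values were seen, had log2 fold changes of −0.93, −1.15 and −0.78 in T_3h vs. CON. MSTRG.552, described as alpha-2-macroglobulin, had 0.854, 4.84 and 5.76 FPKM in CON, 6.23, 22.1 and 42.1 FPKM in T_1h, and 13.6, 18.7 and 28.5 FPKM in T_3h. Its log2 fold change was 2.92 (SE 0.64) at 1 h and 2.29 (SE 0.57, limma adjusted p = 0.649) at 3 h, with every heated library above CON. MSTRG.45318, with the same description, gave 2.46 (SE 0.65) and 1.84 (SE 0.58) in the same comparisons. MSTRG.23773, described as pregnancy zone protein, the most abundant of the list, had 203 to 321 FPKM in T_3h and 44.2 to 163 FPKM in CON (1.51, SE 0.50). Without CON_1, the lowest library for each of these 3 genes, this last call was lost, while those of MSTRG.552 and MSTRG.45318 held with any library left out. The Ballgown-type test did not call MSTRG.45318 at 3 h (2.38). In T_1h vs. CON, MSTRG.23773 gave 1.51 (SE 0.56), a call that was lost with all 9 libraries (1.05) and without CON_1, T_1h_2 or T_1h_3. The fifth gene called at 1 h was MSTRG.40216, a low alpha-2-macroglobulin gene (1.14, not called with all 9 libraries at 0.73, with the block at 0.94 or with the Ballgown-type test at 1.20), named after its values were seen.

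Among 9 genes for MMP activators, 1 was called higher at both times and 1 lower at T_3h, with a median log2 fold change of −0.15 at 1 h and −0.32 at 3 h, beside −0.06 and −0.17 over all genes. With median-ratio scaling these medians were −0.019 and −0.033. MSTRG.3154, described as plasminogen-like, a zymogen whose active form cuts pro-MMPs in mammals, had 0.670, 2.04 and 1.62 FPKM in CON, 2.34, 6.84 and 9.37 FPKM in T_1h, and 4.12, 9.93 and 10.8 FPKM in T_3h. The groups did not overlap with CON, and the log2 fold changes were 1.93 (SE 0.51) at 1 h and 1.88 (SE 0.45, limma adjusted p = 0.631) at 3 h. MSTRG.43601, a proprotein convertase of subtilisin/kexin type 7, of the furin-type family that processes proenzymes, had 0.592, 0.735 and 2.4 FPKM in T_3h and 2.55, 8.07 and 8.53 FPKM in CON (−1.68, SE 0.51). Both genes kept their calls against CON with any library left out and with all 9 libraries, but the Ballgown-type test did not call MSTRG.43601 (−0.94). Furin itself, MSTRG.26192, was not called (−0.52 in T_3h vs. CON).

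Of 47 tested collagen, laminin, nidogen and related genes, 4 were called higher and 1 lower in T_1h vs. CON, and 3 higher and 5 lower in T_3h vs. CON. Of all genes, 0.398% were called higher and 0.473% lower at 1 h, and 0.473% higher and 3.67% lower at 3 h. With median-ratio scaling the counts were 5 higher and 0 lower at 1 h and 3 and 3 at 3 h, and with the Ballgown-type test 3 and 0, then 1 and 1. Their median log2 fold change was 0.16 at 1 h and −0.05 at 3 h, the second of which turned to 0.088 with median-ratio scaling. MSTRG.38727, an alpha-1 collagen, had 352, 716 and 642 FPKM in T_3h and 179, 152 and 181 FPKM in CON (1.68, SE 0.37, limma adjusted p = 0.626). The collagen alpha-2(IX) gene MSTRG.17336 and the collagen alpha-1(IX) gene MSTRG.17333 were also called higher at both times, at 1.58 and 1.39 at 1 h and 1.38 and 1.14 at 3 h. MSTRG.46350, an alpha-2 collagen, fell to 0.116, 0.0666 and 0.553 FPKM in T_3h, against 5.87, 2.81 and 4.02 FPKM in CON (−2.05, SE 0.38, limma adjusted p = 0.626). At 1 h it was also called lower (−1.07, SE 0.43), which median-ratio scaling (−0.91), a pseudocount of 0.1 (−1.45), the Ballgown-type test (−1.20) and the replicate block on 8 libraries (−0.99) did not keep. The block on 9 libraries kept it (−1.33, and −1.17 with scaling). It was also lost without CON_1, CON_3, T_1h_2, T_1h_3 or T_3h_1. MSTRG.46350 and MSTRG.38727 averaged 1.86 and 365 FPKM over the 9 libraries. More abundant genes of these names, given after their values were seen, were not called against CON in the main limma fit. In T_3h vs. CON the alpha-2 collagens MSTRG.32978 and MSTRG.32976 (means of 9534 and 4545 FPKM) gave 0.27 and 0.37. The alpha-1 collagens MSTRG.39736 and MSTRG.39737 (4739 and 1844 FPKM) gave 0.42 and 0.49.

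Among basement membrane genes, the laminin subunit alpha gene MSTRG.13967 was lower in T_3h vs. CON (−1.89, SE 0.62), although CON_3 at 5.01 FPKM was below T_3h_3 at 5.56 FPKM, and this call was lost without CON_2 or T_3h_1, with the Ballgown-type test (−1.61) and with block, 9 libraries and scaling together (−1.54). MSTRG.14032, described as nidogen-1, a linker between laminin and type IV collagen, was lower (−1.51, SE 0.48), with 0.265 to 2.29 FPKM in T_3h and 2.55 to 5.28 FPKM in CON, and the Ballgown-type test did not call it (−0.85). MSTRG.1794, a laminin-like epi-1 gene, was called higher in T_1h vs. CON (1.65, SE 0.63), a call that was lost with all 9 libraries (1.21), with the Ballgown-type test (1.71) and without CON_1, CON_3, T_1h_2 or T_1h_3. The calls of the type IX collagens also rested on few libraries, and the Ballgown-type test made none of them. At 1 h that of MSTRG.17336 was lost without CON_3 or T_1h_3 and that of MSTRG.17333 with all 9 libraries (1.06) and without CON_1 or T_1h_3. At 3 h that of MSTRG.17336 was lost without CON_3, T_3h_2 or T_3h_3, and that of MSTRG.17333 without any CON library, T_3h_2 or T_3h_3.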

How the data were processed

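RNA of AJBW was sequenced in 9 libraries, 3 per condition. The authors removed adaptors and reads of quality under 20, aligned reads to the *A. japonicus* genome with HISAT, assembled transcripts with StringTie and deposited FPKM per gene. The submitters' processing notes name HISAT2 2.0, StringTie 1.3.0 and Bowtie 0.12.2. The study cites a public *A. japonicus* genome release, whose assembly name is not given in the sources used here, and the submitters' notes name a mouse build (mm8). No coordinates were used. The study lists clean and mapped reads per library. No counts per gene could be recovered (16.5% of 1009 low genes lay on whole-read steps, tolerance 0.2%). The depth behind single genes is therefore unknown, and precision rests on the number of libraries. By the study's figures, the share of reads mapping to several places was highest in T_3h_1 and T_3h_2 and near the lowest in T_3h_3. Its effect on the split of reads among genes of the same name was not tested.

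Values of log2(FPKM + 1) entered limma 3.58.1 (R 4.3.3, trend), in 1 model of 3 groups over 8 libraries, with T_1h_1 left out as in the study. The 50973 genes above 0 in at least 2 fitted libraries were tested, two-sided. Thresholds were an unadjusted p of 0.05 and an absolute log2 fold change of 1, and p-values were adjusted over all tested genes (Benjamini-Hochberg). Tables and figures were made with Python 3.11.15, numpy 2.4.6, pandas 2.3.3, scipy 1.17.1 and matplotlib 3.10.9. The procedure was tested on simulated data. Alternatives were a mean FPKM of 1 as the filter, no filter, a pseudocount of 0.1, all 9 libraries, median-ratio scaling, the replicate number as a block (with 8 libraries, with 9, and with 9 and scaling), a Ballgown-type F-test, and each library left out.

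Replicate numbers come from the labels, which call the libraries biological replicates. Whether same-numbered libraries share an animal is not stated, so p-values measure the spread between these libraries. Deviations from group means of same-numbered libraries correlated at 0.593 to 0.721 across genes (9 pairs). For other pairs (18) they correlated at −0.438 to −0.116. Centering each group on its mean makes these negative on average where the same-numbered ones are positive, so they add no separate evidence of pairing. The numbers were taken as pairing libraries in the block fits only, and the SEs and p-values of the main fit ignore this pairing. For MSTRG.29492 in T_3h vs. CON, the limma adjusted p was 0.626 in the main fit. It was 0.185 with the block and 0.096 with the block on 9 libraries. The 8 genes and the lists were chosen with earlier results of these data known. Named genes were the 8 genes, the genes of each list past the thresholds against CON with a mean FPKM of at least 1 (at most 3 higher and 3 lower per list and comparison, by fold change), and the 3 most similar genes of the leading collagenase, MMP-16 and inhibitor. Exceptions are named where they occur.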

Additional observations from a re-analysis of the deposited data

Results flagged for a closer look

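The type IV collagenase MSTRG.29492 had 23.3 FPKM in T_1h_1, a library that the tests leave out, and this was above the 5.86 to 13.8 FPKM of all 3 CON libraries. It was below the 43.5 and 40.0 FPKM of the other T_1h libraries.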

How the results depend on the processing

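Of the 8 genes, 3 were called in T_1h vs. CON, against 1 with all 9 libraries and 1 to 4 with a library left out. In T_3h vs. CON 5 were called, against 2 to 4 with a library left out. In T_3h vs. T_1h none was called, against 1 (MSTRG.45005) with a pseudocount of 0.1, with all 9 libraries, with the replicate block and with both block fits of 9 libraries, and 0 to 1 with a library left out.

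Of all genes, 444 were called in T_1h vs. CON, against 772 with a pseudocount of 0.1, 273 with all 9 libraries, 791 with the replicate block, 712 with the Ballgown-type test and 370 to 747 with a library left out (747 without CON_3). In T_3h vs. CON 2111 were called, against 3362 with that pseudocount, 3173 with the block, 3213 with the block on 9 libraries, 785 with the Ballgown-type test and 1232 to 3667 with a library left out (1300 without CON_2, 1335 without T_3h_1, 1232 without T_3h_2, 3667 without T_3h_3). In T_3h vs. T_1h 371 were called, against 861, 687 with the block on 9 libraries, 177 with the Ballgown-type test and 158 to 1564 with a library left out (682 without T_1h_3, 158 without T_3h_1, 1564 without T_3h_3). On the 8 fitted libraries the block changed no call of the 8 genes other than that of MSTRG.45005 in T_3h vs. T_1h. On all 9 libraries it added the calls of MSTRG.5484 at both times against CON.

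Of the log2 fold changes of the 8 genes under all alternatives, 3 of 136 in T_1h vs. CON, 0 of 136 in T_3h vs. CON and 13 of 136 in T_3h vs. T_1h changed sign, and no gene called in the same comparison did. In T_1h vs. CON these were MSTRG.34270 (−0.82 to 0.30 with a library left out, 0.022 without CON_3 and 0.30 without T_1h_2) and MSTRG.25325 (−0.70 to 0.030 with a library left out, the highest without CON_2). In T_3h vs. T_1h they were MSTRG.34270 (−1.07 to 0.052, the highest without T_1h_3), MSTRG.46832 (0.53 with all 9 libraries, with or without the block, 0.19 with scaling, 0.016 with the block, 0.78 with block, 9 libraries and scaling, 0.11 with the Ballgown-type test, and −0.43 to 0.28 with a library left out, 0.23 without T_1h_2 and 0.28 without T_3h_2), MSTRG.5484 (0.070 with all 9 libraries, with or without the block, 0.41 with scaling added) and MSTRG.23074 (0.15 with block, 9 libraries and scaling). The pseudocount weights low genes more and all 9 libraries add T_1h_1. The causes of the other shifts were not tested. Read depth behind single genes is unknown, which limits statements on genes near 1 FPKM such as MSTRG.25325 and MSTRG.34270.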
